A study of Mus musculus with 4 samples.

Results

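Inhba, Ncam1, Id2, Adpgk, Syne2, Fmnl2, Ifitm6 and AA467197 are 8 of the 32285 genes counted in a single-cell study of Kit+ bone marrow cells. They were chosen by measured RNA levels, because they led the granulocyte cells that were found almost only in the Mll4SI library. Their levels in Mll4SI granulocytes were therefore known when they were picked, and those levels are given here as a description. All 8 symbols were found once in each library, and all 8 reached 10 CPM (counts scaled to a common library total) in the granulocyte-like cells of every library. That the genes led clusters drawing nearly all of their cells from Mll4SI restates the choice. They were also genes of late granulocytes in all 4 libraries, control included. Ifitm6 and Syne2 were also among the leading genes of clusters drawn mostly from Mll3/4SI.

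Granulocyte precursors mature through steps that can be read from their granule genes. Early cells make primary granule proteins such as neutrophil elastase (Elane), later cells switch on Fcnb, and the cells that follow make Ltf, Ly6g and Cd177. The 8 genes have separate roles. Inhba encodes the beta A subunit that forms activin A, a secreted ligand of the TGF-beta family, and Ncam1 encodes an adhesion molecule of the immunoglobulin family. Id2 binds E proteins and keeps them from DNA, and Adpgk phosphorylates glucose with ADP in place of ATP. Syne2 (nesprin-2) ties the nucleus to the cytoskeleton, and Fmnl2 is a formin that builds actin filaments. Ifitm6 belongs to a family of interferon-induced membrane proteins, and AA467197 is a mouse gene related to the mitochondrial complex IV subunit gene Ndufa4.

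RNA and surface antibodies were counted together in CD45.2+Kit+ bone marrow cells taken 10 weeks after transplantation, with 1 library for each of control, Mll3SI, Mll4SI and Mll3/4SI. The series title names MLL3 and MLL4, the histone methyltransferases encoded by Kmt2c and Kmt2d, but the labels do not spell out SI. CD45.2 is one of the CD45 alleles that mouse transplants use to tell donor blood cells from those of the host. The labels give no animal, sex or batch, and no meaning for the 2 hashtag antibodies. No comparison between groups has a replicate, so no test was possible, and each interval in brackets is a 95% interval for counting error only. The 4 libraries kept 6743 (control), 8023 (Mll3SI), 10186 (Mll4SI) and 6755 (Mll3/4SI) cells, with medians of 12800 to 19185 unique molecular identifiers (UMIs) of RNA per cell. Xist, transcribed from the inactive X chromosome, stood at 0.0315 and 0.194 CPM in control and Mll3SI and at 1148 and 1360 CPM in Mll4SI and Mll3/4SI. The last 2 libraries therefore differed from control in a sex-linked transcript as well as in their label, and these cannot be told apart in any comparison below. Libraries shared 16 to 29 cell barcodes per pair. Wherever 4 values follow each other, the order is control, Mll3SI, Mll4SI, Mll3/4SI.

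Granulocyte-like cells, named from marker genes that include none of the 8, numbered 4327, 5311, 7949 and 4824 in control, Mll3SI, Mll4SI and Mll3/4SI. Each was staged from its own counts. It was late when Ltf, Ly6g and Cd177 together reached 200 CPM, otherwise intermediate when Fcnb reached 200 CPM, and otherwise early when Elane reached 1000 CPM. Late cells made up 80.2%, 72.6%, 91.7% and 66.6% of the granulocyte-like cells. Between 0.462% and 2.65% of the granulocyte-like cells of a library lay within 1.5-fold of the late gate. Intermediate cells were few, at 157, 317, 122 and 211, and early cells numbered 696, 1134, 537 and 989. A further 411 Mll3/4SI cells passed no gate, against 1 to 4 in the other libraries. Cluster 20, named granulocyte-like, drew 993 of its 1003 cells from Mll3/4SI and was led by Cpa3, a basophil and mast cell marker. In finer clusters (Leiden resolution 2), a Cpa3-led cluster with 952 Mll3/4SI cells was named basophil or mast cell. The early clusters 1 and 3 held 176 and 218 Mll3/4SI cells. Early cells of Mll3/4SI and control may therefore differ in kind.

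In every library the 8 genes were far higher in late than in early granulocyte-like cells. The median log2 ratio of late to early CPM over the 8 genes lay between 4.69 (Mll3/4SI) and 5.18 (Mll3SI). Over all genes tested the median was between -0.49 and -0.41. All 8 were at least 2-fold higher in late cells in each library, where 13.8%, 13.9%, 13.3% and 10.1% of all genes tested were. The ratio was largest for Ifitm6 in control, at 7.32, and smallest there for Ncam1, at 2.74. Ncam1 was also the member with the smallest ratio in each other library. The stage pattern was thus seen in control as in the other libraries, and the leading genes of the Mll4SI cells were not absent from control. The order of the 3 stages is a gate on other genes, and the 8 genes took no part in it.

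**Figure D1:**
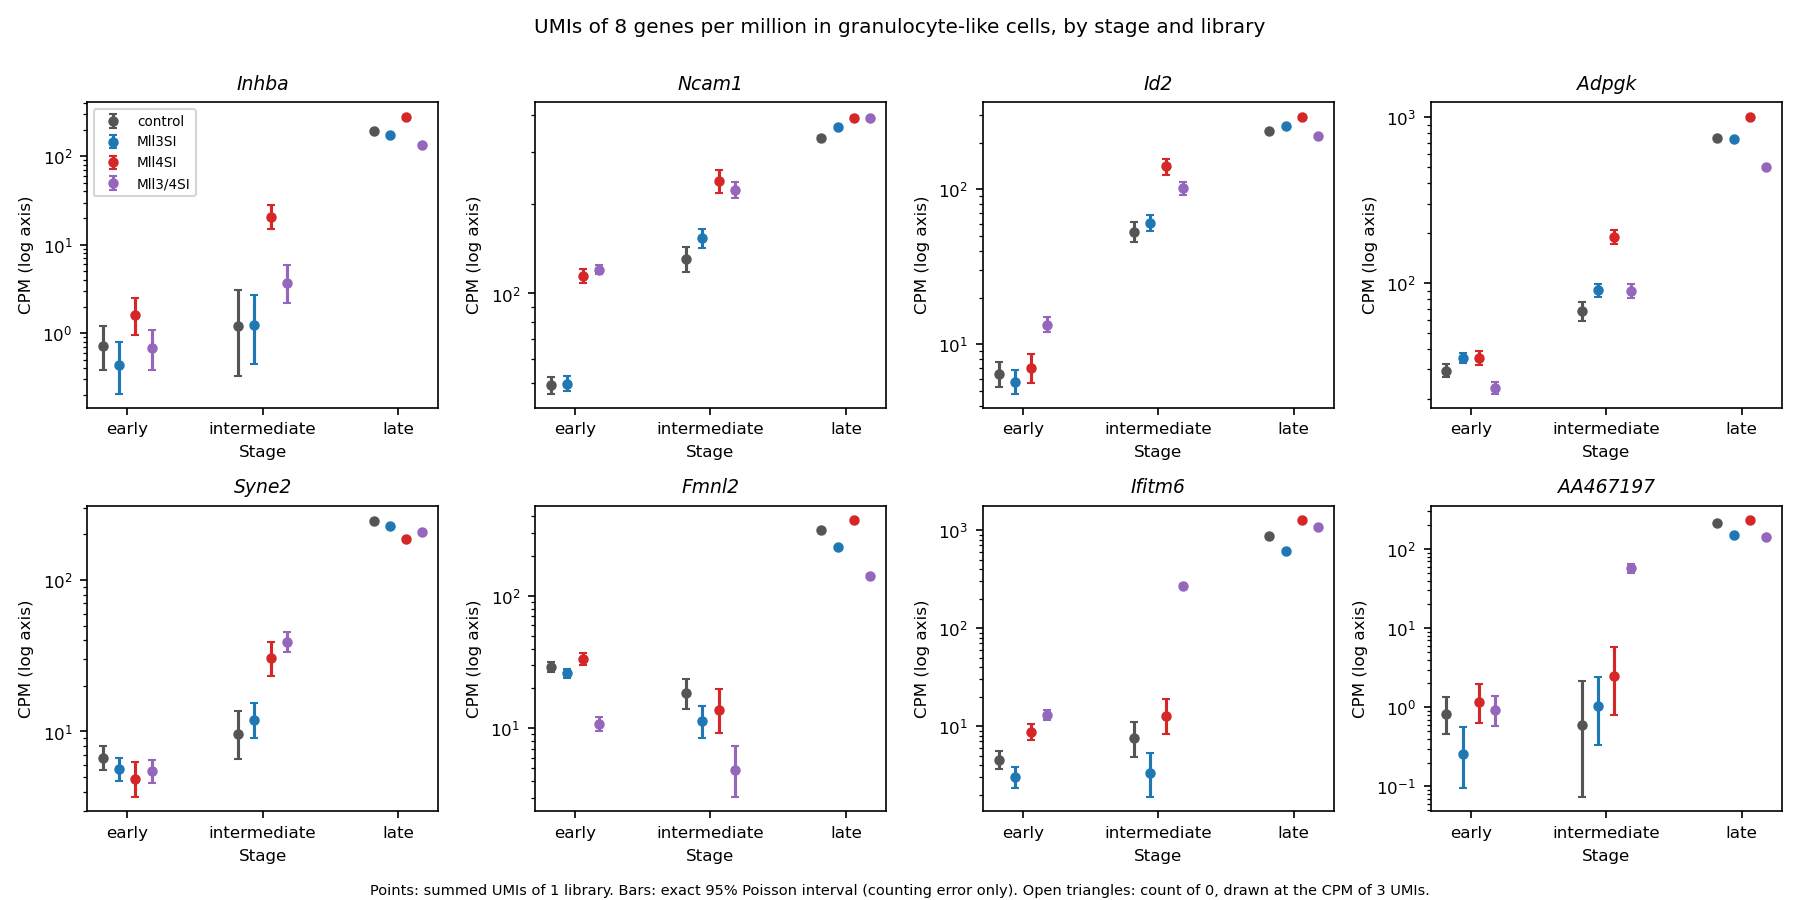
CPM of each gene (log axis) in early, intermediate and late granulocyte-like cells of control (grey), Mll3SI (blue), Mll4SI (red) and Mll3/4SI (purple), with 95% Poisson intervals for counting error and 1 library per point. All 8 genes are highest in late cells in every library, and the libraries lie farther apart in intermediate than in late cells.

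The 8 genes fell into 2 sets by the cluster they led. Cluster 10 drew 2869 of its 2906 cells from Mll4SI, and Inhba, Adpgk, Id2, Ncam1 and Syne2 were among its 10 leading genes, beside the histone gene Hist1h2ap and the granule genes Camp and Ngp. Cluster 18 drew 1953 of 1988 cells from Mll4SI, and Ifitm6, Fmnl2, AA467197 and Adpgk were among its 10 leading genes, beside Ltf and Cybb, a subunit of the NADPH oxidase. Adpgk was thus the one member in both. Clusters 24 (964 of 1108 cells) and 25 (619 of 622 cells) were also mostly Mll4SI. These 4 clusters held 80.6% of the Mll4SI granulocyte-like cells. Such ranks were not particular to Mll4SI. Ifitm6 was also among the 10 leading genes of cluster 11 (297 of 298 cells from Mll3/4SI). The same held for Ifitm6 in the mixed cluster 17 (379 of 1037 cells from Mll4SI). Syne2 was among those of cluster 7 (1275 of 1324 cells from Mll3/4SI). Since the cells were grouped and the genes ranked on the same counts, these ranks describe the clusters and test nothing.

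For the first set, the control cells of cluster 5 stood near those levels. Inhba was at 283 CPM in the Mll4SI cells of cluster 10 and at 223 CPM in the control cells of cluster 5, 49.5% of which was control. Syne2 was at 268 CPM in cluster 10 and at 285 CPM in cluster 5. For the second set, Ifitm6 was at 2628 CPM in the Mll4SI cells of cluster 18 and Fmnl2 at 665 CPM, against 766 and 330.4 CPM in the control cells of cluster 5. Control cells of cluster 17, 295 in number, stood nearer to cluster 18, with Ifitm6 at 2059 CPM, Fmnl2 at 457 CPM and AA467197 at 359 CPM. Cluster 24, led by the late granule and gelatinase genes Mmp8, Retnlg and Mmp9, held 66 control cells. In those, Ifitm6 was at 2477 CPM against 3230 CPM in the 964 Mll4SI cells, and AA467197 at 665 against 747 CPM. Inhba was at 79.1 CPM in the control cells of cluster 24 and 296 CPM in its Mll4SI cells. Within that 1 cluster, then, Ifitm6 and AA467197 of the second set were closer between the 2 libraries than Inhba was.

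**Figure D2:**
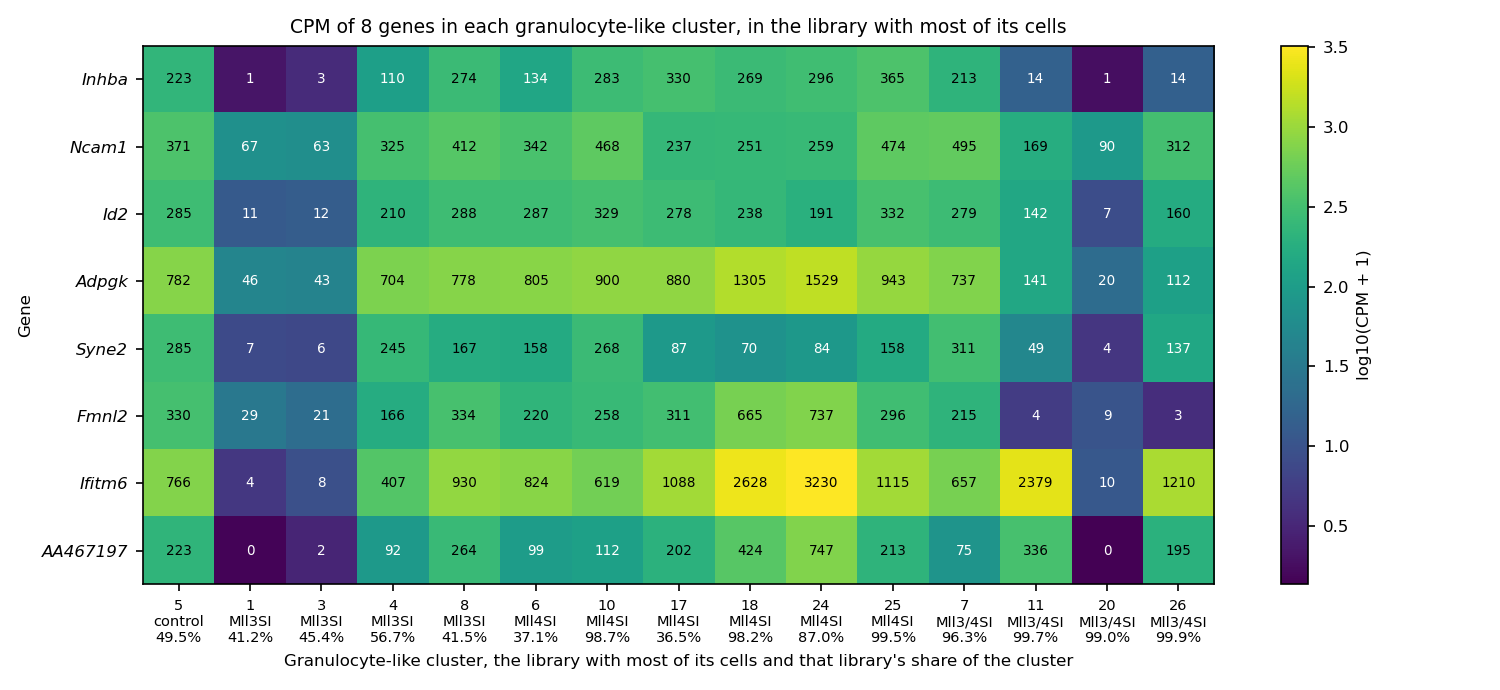
CPM of each gene in the 15 granulocyte-like clusters, each shown for the library that gave most of its cells, with that library's share below the cluster number; colour is log10 of CPM + 1. Clusters 18 and 24 have the highest Ifitm6, Fmnl2, AA467197 and Adpgk, clusters 10 and 25 are high in Inhba, Ncam1 and Id2, and the early clusters 1, 3 and 20 are low in all 8.

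The ratio of Mll4SI to control over all granulocyte-like cells is the contrast behind the choice. Its log2 values were 0.82 for Inhba, 0.80 for Ifitm6, 0.68 for Adpgk, 0.56 for Id2, 0.48 for Ncam1 and Fmnl2, 0.38 for AA467197 and -0.11 for Syne2. The median was 0.52, against -0.10 for all genes tested. None of the 8 reached a 2-fold difference in this contrast, which 0.924% of all genes reached upward and 1.13% downward. Much larger ratios belonged to other genes. Retnlg was at 92.9 CPM in control and 394 CPM in Mll4SI, and Mmp8 at 29.8 and 147 CPM. Astn2 was at 6.74 and 90.2 CPM and Adgrl3 at 3.04 and 64.7 CPM, with 8.57 and 5.66 CPM in Mll3/4SI. The 3 genes highest in rank among the 8 were Ifitm6 (rank 65), Inhba (66) and Adpgk (86), by log2 ratio with 10 CPM added.

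In Mll3SI and Mll3/4SI, most of the 8 genes were lower than in control over all granulocyte-like cells. The median log2 ratio was -0.30 [-0.34 to -0.26] in Mll3SI and -0.55 [-0.59 to -0.51] in Mll3/4SI, where brackets hold the medians of the gene intervals. The medians of all genes tested were 0.01 and -0.02. The Mll3SI median was -0.52 with Hashtag1 cells and -0.081 with Hashtag2 cells. The Mll3/4SI median was -0.27 with Hashtag1 cells, -0.30 by stage gates alone and -0.35 when the cells were grouped into finer clusters (Leiden resolution 2). No member passed 2-fold in Mll3SI, where 0.143% of genes were higher and 0.22% lower. In Mll3/4SI only Fmnl2 did, at -1.35, where 0.623% of genes were lower and 1.77% higher by 2-fold. With Hashtag1 cells alone Fmnl2 was at 131 CPM in Mll3/4SI and 257 CPM in control, short of 2-fold. Without the 8 clusters in which 1 library gave more than 80% of the cells (an alternative added after the data were seen), 1520 Mll4SI and 4232 control cells were left, and the Mll4SI median turned to -0.76. That setting also changed the mix of stages, since the early clusters 1 and 3 gave 443 and 243 of those Mll4SI cells and 472 and 370 of those control cells. It removed the clusters from which the genes were chosen, so nothing is read from the turn. All 3 comparisons share the control library, so 1 odd control value would move them together. The libraries also differed in the share of late cells given above.

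Within late cells, a narrower range of stages, 7 of the 8 genes were still highest in Mll4SI and Syne2 was highest in control. The median log2 ratio of Mll4SI to control was 0.26, against -0.01 for all genes tested, and no member passed 2-fold, as 0.971% of all genes did upward and 0.76% downward. In Mll3SI the median was -0.13, no member passed 2-fold and 0.324% and 0.211% of genes did upward and downward. In Mll3/4SI it was -0.37, against -0.05 for all genes tested, and only Fmnl2 was past 2-fold, where 0.731% of genes were lower by that much and 0.745% higher. Other genes of late maturation moved in the same cells: Retnlg was at 131, 145, 457 and 153 CPM in control, Mll3SI, Mll4SI and Mll3/4SI, and Mmp8 at 42.0, 20.8, 171 and 25.3 CPM. Late cells also differed in marker level between libraries. Of the 3471, 3856, 7289 and 3213 late cells, 2042, 1586, 3529 and 767 had 8000 CPM or more of Ltf, Ly6g and Cd177 together. The part of late genes and of marker level in the differences of the 8 genes was not tested.

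Inhba (ENSMUSG00000041324, GRCm38 chromosome 13, 16011851 to 16031621, plus strand) had late-cell levels of 192, 172, 279 and 135 CPM. Mll4SI was the highest of the 4 and Mll3/4SI the lowest. The log2 ratios of Inhba to control were 0.54 [0.51 to 0.58] in Mll4SI, -0.50 [-0.54 to -0.46] in Mll3/4SI and -0.15 [-0.20 to -0.11] in Mll3SI. After each cell was thinned to 3000 UMIs, 41.1% of late control cells held an Inhba UMI, against 54.4% in Mll4SI and 29.4% in Mll3/4SI. In erythroid-like cells, which should lack it, the thinned share was 1.21% in control and 0.866% in Mll4SI. In intermediate cells Inhba was at 1.21, 1.23, 20.7 and 3.72 CPM, from 4, 6, 42 and 17 UMIs. Mll4SI was again highest. Its early cells stood at 1.59 CPM and its erythroid-like cells, pooled without a stage gate, at 15.04 CPM. Of the erythroid-like cells of all 4 libraries, 4.68% passed the late gate. The part of background in the intermediate level was not tested. Thinned shares of cells with a UMI differed more between intermediate and erythroid-like Mll4SI cells, at 5.83% and 0.866%.

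A list of other genes of the activin and TGF-beta pathway was read beside Inhba. Of 24 listed genes (ligands, receptors, inhibitors and Smads), 11 reached 10 CPM in granulocyte-like cells of control or Mll4SI, none was higher in Mll4SI by 2-fold and 1 was lower, against 0.924% and 1.13% of all genes. Inhba itself did not pass 2-fold there. The gene that was lower was Acvr1b, a type I activin receptor, at 18.0 CPM in late control cells and 5.04 CPM in late Mll4SI cells, a log2 ratio of -1.65. Acvr2a, a type II receptor, was at 3.78 and 3.21 CPM there. Smad7, an inhibitory Smad, was at 11.7, 12.7, 20.4 and 21.4 CPM in late cells, with a log2 ratio of 0.75 in Mll4SI. Fst, which binds and blocks activin, was under 10 CPM but also higher in Mll4SI, at 1.27 CPM in late control and 5.50 CPM in late Mll4SI cells (67 and 478 UMIs). The antisense gene Gm48444, which overlaps Inhba, stayed below 1 CPM in late cells of every library.

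Adpgk (ENSMUSG00000025236, chromosome 9, 59291558 to 59324052, plus strand) had late-cell levels of 754, 743, 1008 and 505 CPM. Control and Mll3SI were nearly level, with Mll4SI above and Mll3/4SI below. The log2 ratio was 0.42 [0.40 to 0.44] in Mll4SI, and in Mll3/4SI it was -0.58 [-0.60 to -0.56]. In intermediate cells Adpgk was at 67.2, 90.0, 189 and 89.5 CPM, and in Mll4SI the log2 ratio was 1.48 [1.25 to 1.74]. The erythroid-like cells of the 4 libraries stood at 22.3, 31.0, 78.8 and 19.7 CPM, so part of the Mll4SI level was also seen in cells of another type. Bbs4 overlaps Adpgk on the other strand and was at 5.53 to 7.38 CPM in late cells, and whether strand was used in counting is not given in the sources used here. Of the 8 listed genes of the first steps of glycolysis (hexokinases, Gpi1 and phosphofructokinases), 6 reached 10 CPM, and none differed by 2-fold in granulocyte-like, intermediate or late cells of any library. Their median log2 ratio in late Mll4SI cells was -0.12.

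Id2 (ENSMUSG00000020644, chromosome 12, 25093799 to 25097140, minus strand) had late-cell levels of 238, 257, 291 and 221 CPM. Mll4SI was the highest and Mll3/4SI the lowest, within a narrow range. In intermediate cells the spread was wider, at 53.1, 60.9, 140.2 and 101 CPM, with log2 ratios of 1.39 [1.13 to 1.68] for Mll4SI and 0.92 [0.68 to 1.19] for Mll3/4SI. Of the 6 listed Id and E protein genes 4 reached 10 CPM, and none differed by 2-fold in the same cells. Id1 was lower in late Mll4SI cells, at 120 CPM against 149 CPM in control, so the related gene lay the other way.

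Ncam1 (ENSMUSG00000039542, chromosome 9, 49502136 to 49798925, minus strand) differed most in early cells. There it stood at 49.1, 49.7, 115 and 120.3 CPM. Control and Mll3SI were level, and both libraries with the Mll4 label stood above them, with log2 ratios of 1.21 [1.10 to 1.35] and 1.27 [1.18 to 1.40]. Ncam1 was the only member past 2-fold in early Mll4SI cells, where 0.724% of genes were higher and 0.506% lower, and none was in Mll3SI, where 0.123% were higher and 0.222% lower. In early Mll3/4SI cells Ncam1 and Ifitm6 were higher and Fmnl2 lower by 2-fold, where 3.18% of genes were higher and 0.744% lower. The Mll3/4SI cells of the Cpa3-led cluster 20 had Ncam1 at 90.3 CPM, so these early cells may differ in kind from those of control. The erythroid-like cells were at 1.97, 4.57, 16.7 and 0.646 CPM, below the early granulocyte-like level in each library. After thinning, 13.1%, 12.5%, 26.1% and 28.1% of early cells held an Ncam1 UMI, against 0.725%, 1.41%, 0.433% and 0% of erythroid-like cells (0 of 125 in Mll3/4SI allows up to 2.40%). In late cells the 4 libraries were closer, at 334, 364, 390.4 and 389 CPM. The log2 ratios there were 0.22 in both Mll4SI and Mll3/4SI and 0.12 in Mll3SI. Of the 5 listed genes related to Ncam1, 1 reached 10 CPM in granulocyte-like cells. That gene, St8sia4, which adds polysialic acid to Ncam1, was at 21.3 CPM in control and 54.6 CPM in Mll3/4SI over granulocyte-like cells, and at 2.47 and 2.51 CPM in late cells.

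Syne2 (ENSMUSG00000063450, chromosome 12, 75818134 to 76110926, plus strand) went against the rest in late cells. It stood at 245, 227, 187 and 207 CPM, so Mll4SI was the lowest. The log2 ratio was -0.39 [-0.42 to -0.35] in Mll4SI. In intermediate cells Syne2 was at 9.65, 11.9, 30.5 and 39.2 CPM, with both Mll4SI and Mll3/4SI above control by log2 ratios of 1.57 [1.02 to 2.32] and 1.92 [1.47 to 2.61]. The related nesprin gene Syne1 was at 1119 CPM in control and 1606 CPM in Mll4SI over all granulocyte-like cells. Of the 13 listed formin, nesprin and nuclear envelope genes, 11 reached 10 CPM, and in granulocyte-like and late cells none differed by 2-fold. In intermediate cells Syne1 was higher in Mll3/4SI, at 666 CPM against 282 CPM in control, a log2 ratio of 1.24.

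Fmnl2 (ENSMUSG00000036053, chromosome 2, 52857860 to 53133804, plus strand) had the widest range in late cells on the log2 scale. It stood at 316, 232, 371 and 142 CPM. The log2 ratios were 0.23 [0.20 to 0.26] in Mll4SI, -0.45 [-0.48 to -0.41] in Mll3SI and -1.15 [-1.19 to -1.12] in Mll3/4SI. The size of the last depended on the hashtag. In late cells with Hashtag1 alone Fmnl2 was at 184 CPM in Mll3/4SI and 333 CPM in control, short of 2-fold. Fmnl2 was low in Mll3/4SI at the other stages too, at 10.8 CPM in early cells against 29.1 CPM in control, and at 4.81 CPM in intermediate cells against 18.4 CPM. The 993 Mll3/4SI cells of the Cpa3-led cluster 20 had Fmnl2 at 9.36 CPM, so the early cells compared may differ in kind. The gap was smaller among late cells with the highest summed Ltf, Ly6g and Cd177 (8000 CPM or more), at 323 CPM in Mll3/4SI and 399 CPM in control, a log2 ratio of -0.30 [-0.36 to -0.25]. There Inhba was at 222 CPM in both and Adpgk at 828 and 823 CPM. Unlike Inhba, Ncam1, Id2 and Adpgk, Fmnl2 was lower in intermediate than in early cells of every library.

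Ifitm6 (ENSMUSG00000059108, chromosome 7, 141015699 to 141017924, minus strand) had late-cell levels of 884, 616, 1269.9 and 1068 CPM. Both libraries with the Mll4 label were above control, and Mll3SI was below it. The log2 ratios were 0.52 [0.51 to 0.54] in Mll4SI, 0.27 [0.26 to 0.29] in Mll3/4SI and -0.52 [-0.54 to -0.50] in Mll3SI. In intermediate cells Ifitm6 was at 7.54, 3.29, 12.8 and 270.0 CPM. Mll3/4SI stood alone there, from 1234 UMIs against 25 in control, with a log2 ratio of 4.99 [4.59 to 5.80]. Its erythroid-like cells were at 2.91 CPM. In Mll4SI the erythroid-like cells were at 55.1 CPM, above the intermediate level, and the early cells at 8.78 CPM. No difference is read from the 12.8 CPM, which rests on 26 UMIs. Other Ifitm genes on chromosome 7 were read beside it. Ifitm3 was at 20.5, 17.9, 21.6 and 324 CPM in intermediate cells, so it stood out in the same library and stage as Ifitm6. Ifitm3, whose annotated span lies 4929 bases from that of Ifitm6, was at 292, 215, 379.7 and 715 CPM in late cells, and Ifitm1 at 6.26, 6.64, 3.04 and 36.9 CPM over all granulocyte-like cells. In late cells Ifitm1 was at 2.05, 1.82, 1.48 and 1.68 CPM, so Mll3/4SI was not above control there. Over all granulocyte-like cells 3 of the 6 listed Ifitm genes reached 10 CPM, and Ifitm3 and Ifitm1 were past 2-fold in Mll3/4SI.

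AA467197 (ENSMUSG00000033213, chromosome 2, 122636986 to 122641191, plus strand) had late-cell levels of 215, 152, 231 and 142 CPM. Control and Mll4SI were close, with a log2 ratio of 0.10 [0.07 to 0.14], and the other libraries were lower. In intermediate cells it was at 0.603, 1.03, 2.46 and 56.9 CPM, from 2, 5, 5 and 260 UMIs. Only Mll3/4SI was clearly above a handful of UMIs, and its log2 ratio of 5.17 [4.69 to 9.61] rests on 2 control UMIs. In thinned cells 13.7% of intermediate Mll3/4SI cells held an AA467197 UMI, against 0.641% in control and 0% of the Mll3/4SI erythroid-like cells. Of the 4 listed genes around the complex IV paralogues, 2 reached 10 CPM, and neither differed by 2-fold.

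Counting the intermediate stage as a whole, Id2, Adpgk, Syne2 and Inhba were past 2-fold upward in Mll4SI, where 1.45% of all genes were higher and 1.35% lower. Of these, Inhba was also found in the pooled erythroid-like cells of Mll4SI, and the part of such background was not tested. The AA467197 ratio also passed 2-fold but rests on 5 and 2 UMIs, and its interval of -0.58 to 5.42 includes no difference. In Mll3/4SI Inhba, Syne2, Ifitm6 and AA467197 were past 2-fold upward and Fmnl2 downward, where 2.92% of all genes were higher and 2.2% lower. In Mll3SI none of the 8 was, where 0.179% were higher and 0.255% lower. Members under 10 CPM in both libraries (AA467197 in Mll4SI, Inhba in Mll3/4SI) would not have entered those shares. The secondary granule gene Camp, which is switched on as cells mature, was at 4925, 8244, 27859 and 29059 CPM in intermediate cells. Intermediate cells of the last 2 libraries were thus farther along in another granule gene, and its part in the differences was not tested.

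**Figure D3:**
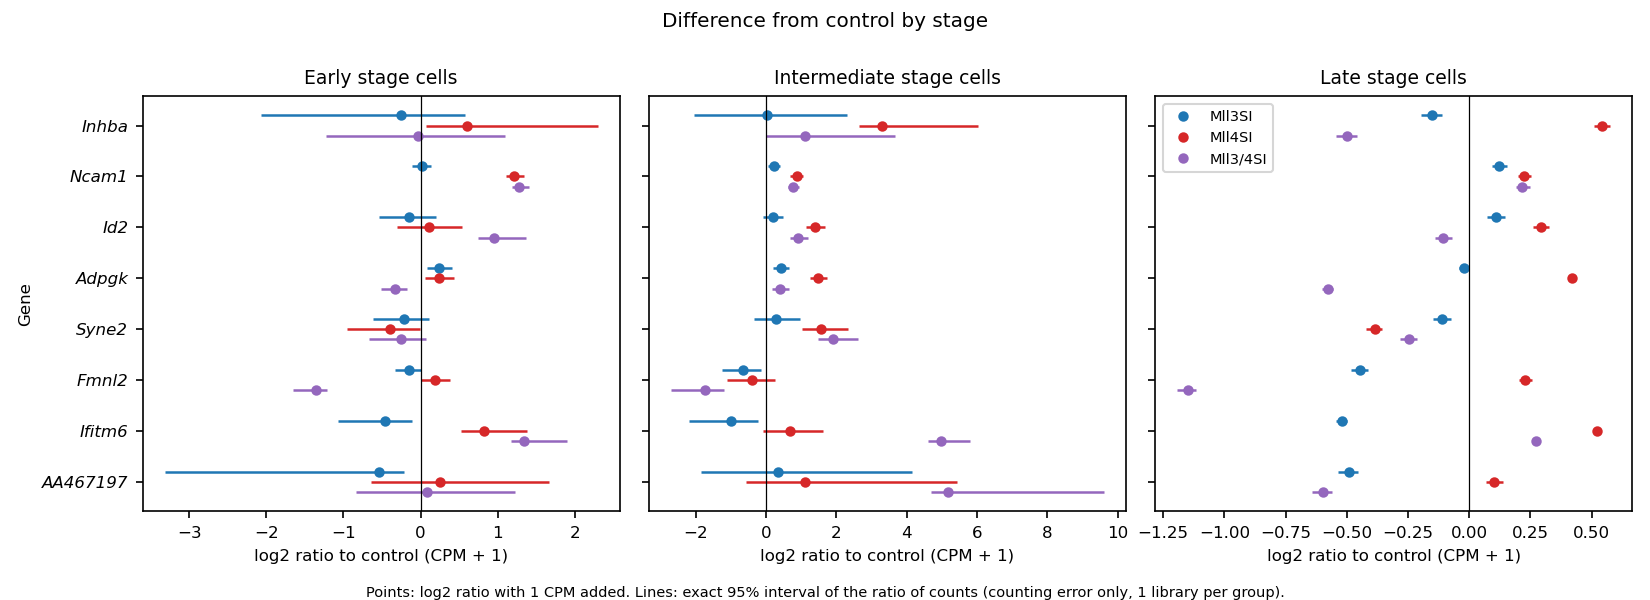
Log2 ratio to control (CPM + 1) of each gene in early, intermediate and late cells for Mll3SI (blue), Mll4SI (red) and Mll3/4SI (purple), with 95% counting intervals taken without the added 1; the 3 panels have their own horizontal scales. The late panel spans -1.15 to 0.54, while Ifitm6 and AA467197 reach 4.99 and 5.17 in intermediate Mll3/4SI cells.

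In intermediate Mll3/4SI cells Ifitm6 and AA467197 stood above control and Fmnl2 below it, and the promoters of these 3 genes are shown. Ifitm6 and AA467197 did not stay together in late cells. There Ifitm6 was at 1068 CPM in Mll3/4SI against 884 CPM in control, and AA467197 at 142 against 215 CPM. RefSeq promoter windows (GRCm38.p6, 250 bases before to 50 after the start) were found for 7 of the 8 genes, Ncam1 not being matched. The Ifitm6 and AA467197 windows lie inside the gene spans given above, so their RefSeq starts differ from the starts of those spans. Capitals mark the TATA motif TATAAA, the AP-1 motif TGANTCA and the GC box GGGCGG, each searched on both strands.
Ifitm6, chr7:141016843-141017142, minus strand: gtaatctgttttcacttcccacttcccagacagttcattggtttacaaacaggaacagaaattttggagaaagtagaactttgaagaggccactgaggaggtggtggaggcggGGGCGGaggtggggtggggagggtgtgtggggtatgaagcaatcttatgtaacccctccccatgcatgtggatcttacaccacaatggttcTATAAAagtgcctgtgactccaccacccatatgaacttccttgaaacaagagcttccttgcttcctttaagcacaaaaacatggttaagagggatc
AA467197, chr2:122637637-122637936, plus strand: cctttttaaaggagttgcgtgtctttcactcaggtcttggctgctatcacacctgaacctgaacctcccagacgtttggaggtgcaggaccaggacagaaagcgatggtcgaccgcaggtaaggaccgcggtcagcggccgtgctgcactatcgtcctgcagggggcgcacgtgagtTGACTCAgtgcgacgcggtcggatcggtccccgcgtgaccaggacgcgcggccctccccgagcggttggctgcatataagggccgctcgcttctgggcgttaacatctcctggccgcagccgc
Fmnl2, chr2:52857618-52857917, plus strand: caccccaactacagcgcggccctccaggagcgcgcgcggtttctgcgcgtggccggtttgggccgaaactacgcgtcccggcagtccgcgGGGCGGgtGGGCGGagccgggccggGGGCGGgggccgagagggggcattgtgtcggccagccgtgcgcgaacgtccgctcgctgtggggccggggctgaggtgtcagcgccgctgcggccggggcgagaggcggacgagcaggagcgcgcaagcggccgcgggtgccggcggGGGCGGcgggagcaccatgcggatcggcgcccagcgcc
The Ifitm6 window held 2 CG dinucleotides, that of AA467197 held 29 and that of Fmnl2 held 49, against a median of 7 over all 32851 windows. Ifitm6 had TATAAA starting 46 bases before its start and 1 GC box. Inhba was the other member with TATAAA, 91 bases before its start, and 13.6% of all windows held it. AA467197 had the AP-1 motif 73 bases before its start, as 7.81% of windows did, and Fmnl2 had 4 GC boxes, a motif found in 35.7% of windows. The C/EBP motif TTGCGCAA, the PU.1 motif GAGGAAGT and the CRE motif TGACGTCA were in none of the 7 windows, and in 0.183%, 3.20% and 1.79% of all windows. The E-box CANNTG was in 5 of the 7 windows and in 72.3% of all windows, and CCAAT in 3 of the 7 and in 37.4% of all.

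The neighbours of the 8 genes mostly stayed level. Of the 48 nearest genes (3 on each side of each member), 13 reached 10 CPM in granulocyte-like cells. In Mll4SI 1 of them was higher and 1 lower by 2-fold, against the 0.924% and 1.13% of all genes. Sugct, 825851 bases from Inhba, was at 7.88 CPM in control and 23.4 CPM in Mll4SI, and Wdr89, 148597 bases from Syne2, was at 41.2 and 19.1 CPM. In late cells Wdr89 was at 19.7 and 12.3 CPM, short of 2-fold. In Mll3/4SI the 2 that were higher were Ifitm1 and Ifitm3, where 1.77% of all genes were higher. In Mll3SI none was past 2-fold, where 0.143% of all genes were higher and 0.22% lower.

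Late cells were then divided by their summed Ltf, Ly6g and Cd177 into 4 bands (200 to 1000, 1000 to 4000, 4000 to 8000 and 8000 CPM or more). The bands were drawn after the data were seen. At low marker levels Inhba and Fmnl2 were higher in Mll4SI than in the other libraries. In the band of 1000 to 4000 CPM, Inhba was at 55.9, 51.6, 176 and 41.7 CPM. The share of thinned cells with an Inhba UMI was 11.03% in control and 40.0% in Mll4SI, against the 0.866% of Mll4SI erythroid-like cells. Fmnl2 in that band was at 51.5, 39.5, 143 and 17.4 CPM, and Ifitm6 at 222, 144, 476 and 971 CPM. This band held 139 control and 513 Mll4SI cells.

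At the highest marker level the picture was different. Inhba was at 222 CPM in control and 292 CPM in Mll4SI, and Ncam1 was at 359.7 and 351 CPM, so both were closer than in the lower band. Ifitm6 was at 1067 and 2006 CPM, Fmnl2 at 399 and 556 CPM and AA467197 at 263 and 379 CPM. These 3 were apart, and so was Adpgk, at 823 and 1222.5 CPM. Inhba and Id2 (234 and 259 CPM) also stayed higher in Mll4SI. Syne2 was at 262, 259, 156 and 265 CPM, lower in Mll4SI alone. In the same band Mki67, a marker of cycling cells, was at 777 CPM in control and 336 CPM in Mll4SI, and Mmp8 at 57.3 and 352 CPM. The median Mll4SI cell there had 8256 UMIs against 14345.5 in control. The part of cycling, maturity and depth in the Syne2 level was not tested.

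**Figure D4:**
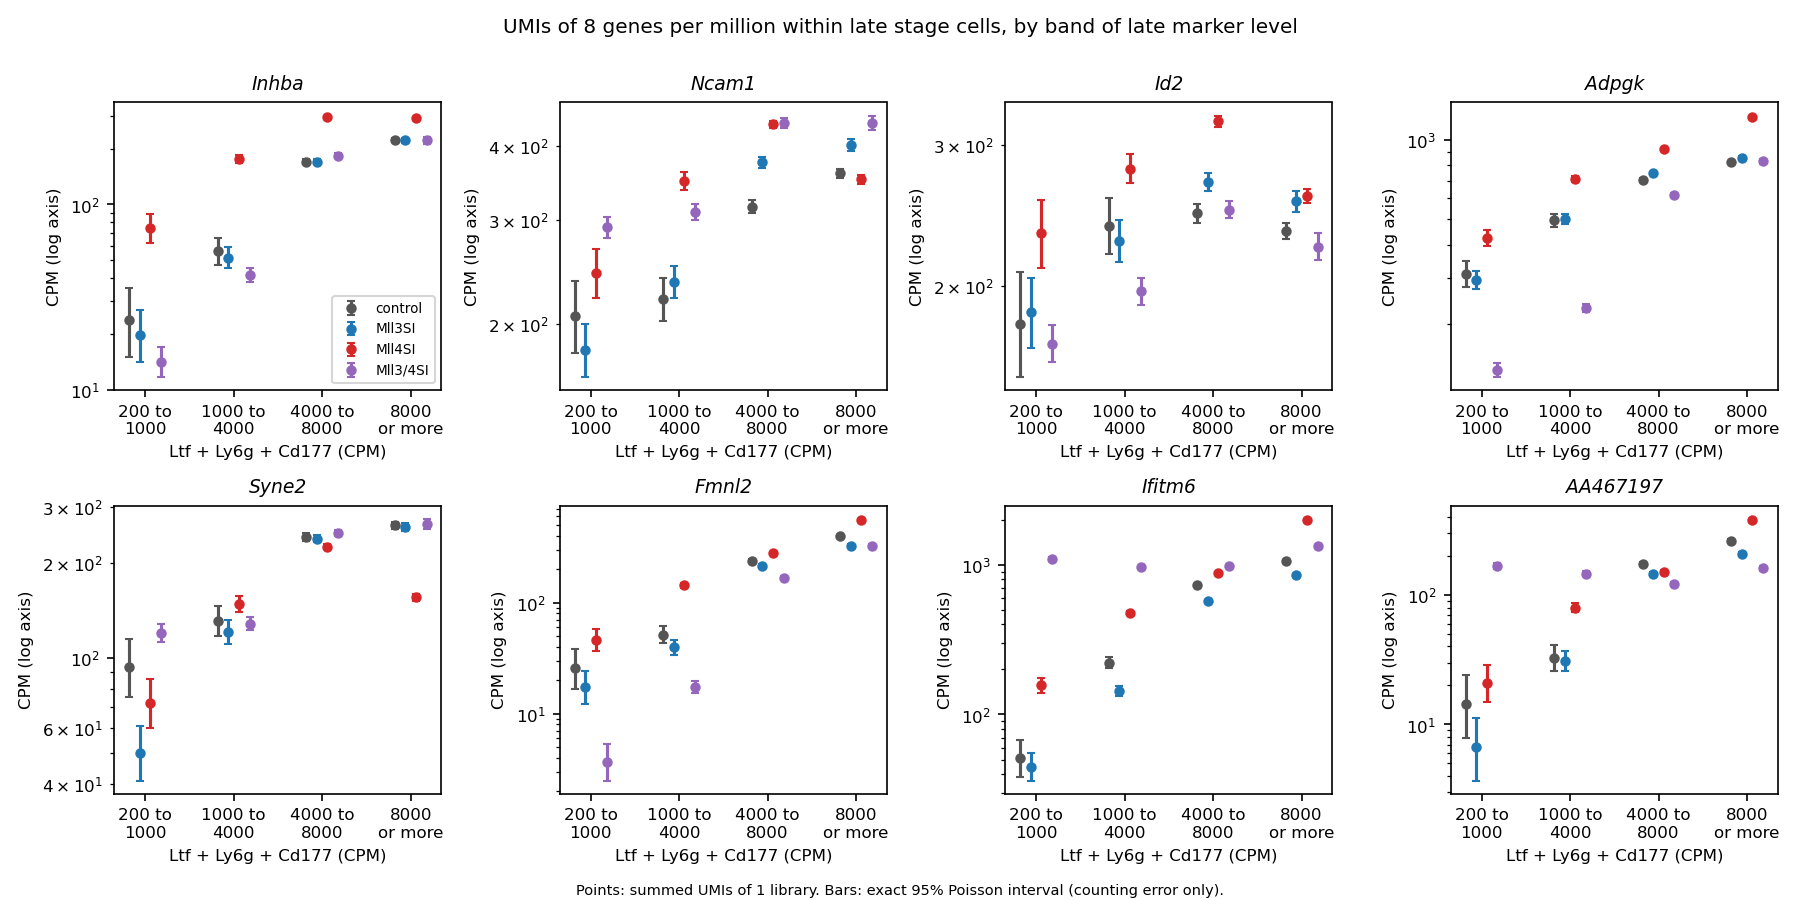
CPM of each gene (log axes) in 4 bands of summed Ltf, Ly6g and Cd177 within late cells, for control (grey), Mll3SI (blue), Mll4SI (red) and Mll3/4SI (purple), with 95% Poisson intervals. Inhba in Mll4SI lies above the other libraries in every band, Syne2 in Mll4SI drops to 156 CPM in the top band, and Ifitm6 and AA467197 in Mll3/4SI are already high in the lowest band.

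Mll3/4SI showed a combination of levels that no band of control did. In its lowest band Ifitm6 was at 1098 CPM against 51.5 CPM in control and AA467197 at 168 against 14.4 CPM, while Fmnl2 was at 3.69 against 25.7 CPM and Adpgk at 134 against 311 CPM. The split was clearest in clusters 26 and 11, which drew 1085 of 1086 and 297 of 298 cells from Mll3/4SI. Cluster 26 had Ifitm6 at 1209.6 CPM and Fmnl2 at 2.75 CPM, and cluster 11 had them at 2379 and 4.41 CPM. Inhba was at 13.9 and 14.2 CPM in these clusters. Both clusters were led by the stefin-family genes Cstdc5, Cstdc4 and Stfa1, and Ifitm6 was among the 10 leading genes of cluster 11. Cluster 7, also 96.3% Mll3/4SI, had Inhba at 213 CPM and Syne2 at 311 CPM, close to the 223 and 285 CPM of control cells in cluster 5. Its Fmnl2 was lower, at 215 against 330.4 CPM, and so was AA467197, at 75.2 against 222.6 CPM. Fmnl2 and Inhba therefore differed more than 10-fold between clusters of the 1 library.

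The number of the 8 genes with a UMI was also counted in each cell. This number follows the level of each gene, and whether the genes were found together more often than their levels give was not tested. After thinning, a UMI of at least 3 of the 8 was found in 73.6% [72.3 to 74.9], 62.7% [61.4 to 64.0], 87.3% [86.5 to 88.0] and 53.4% [51.96 to 54.8] of granulocyte-like cells. Without thinning the shares were 85.9%, 78.1%, 94.9% and 75.9%. Within late cells they were 91.6%, 86.2%, 94.9% and 76.8%, so the gap between control and Mll4SI was narrower there. In early cells they were 0.144%, 0.176%, 0.559% and 0.910%. Intermediate cells stood at 1.92%, 2.84%, 16.7% and 18.0%, from 3 of 156, 9 of 317, 20 of 120 and 38 of 211 cells. In erythroid-like cells the thinned share was 0.242% in control and 3.46% in Mll4SI. It was 0% in Mll3SI (0 of 427 cells, which allows up to 0.703%) and in Mll3/4SI (0 of 125 cells, which allows up to 2.40%). Median depths before thinning were 11626 UMIs in granulocyte-like and 15957 UMIs in erythroid-like Mll4SI cells.

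**Figure D5:**
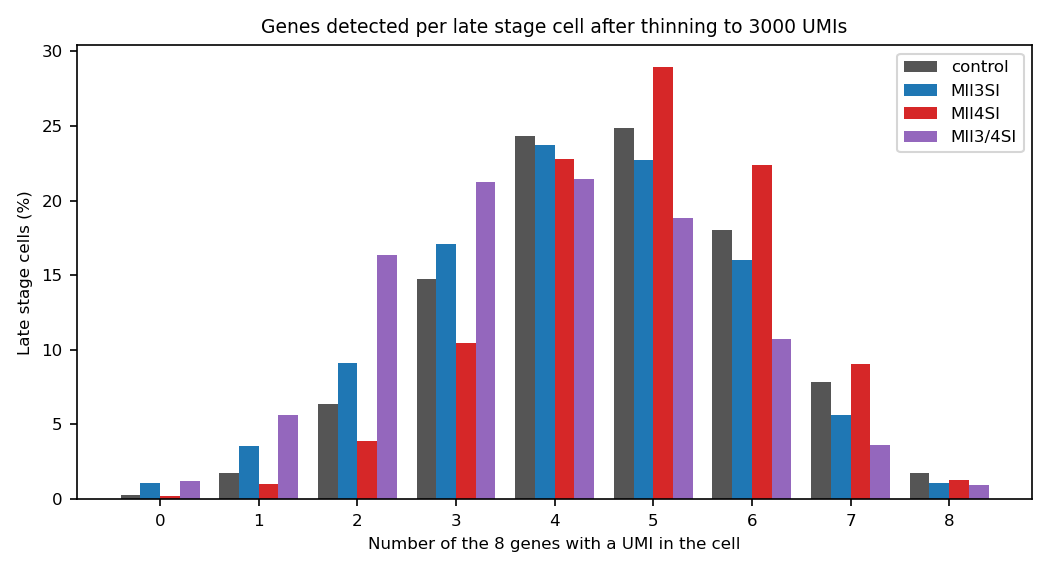
Share of late cells (%) by how many of the 8 genes had a UMI after thinning each cell to 3000 UMIs, for control (grey), Mll3SI (blue), Mll4SI (red) and Mll3/4SI (purple). Mll4SI has the largest shares of the 4 libraries at 5 and 6 genes (28.9% and 22.4%) and Mll3/4SI at 2 and 3 genes (16.3% and 21.2%).

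Surface antibodies, which played no part in the choice of genes, separated late cells with many of the 8 transcripts from those with few. In late Mll4SI cells, Gr1 (which binds Ly6g and Ly6c) took 37.8% of antibody UMIs in the 6862 cells with at least 3 of the genes and 22.2% in the 353 cells with 1 or 2. In control late cells the values were 47.4% (3169 cells) and 30.8% (280 cells). CD117, the Kit protein by which the cells were selected, took 3.86% and 6.16% in Mll4SI and 2.50% and 3.31% in control. CD48 took 6.97% and 15.7% in Mll4SI and 7.46% and 12.1% in control. Gr1 was 43.7% and 24.1% in Mll3SI and 28.2% and 8.29% in Mll3/4SI. All 4 libraries thus had more Gr1 signal where more of the 8 transcripts were found. The number found also rose with the late markers, which include Ly6g. In control, 35.3% of thinned late cells held at least 3 of the genes in the lowest marker band and 96.4% in the highest. The part of maturity in the antibody differences was not tested. Over all late cells Gr1 took 46.0%, 41.0%, 36.9% and 24.3%.

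Outside granulocytes, Id2 and Fmnl2 had other sources. Id2 was at 1341 CPM in the 55 dendritic-like control cells and at 1095 CPM in the 25 control cells like T or NK cells, and Fmnl2 was at 589 CPM in those dendritic-like cells. Late granulocyte-like cells held few transcripts of either type. Adding the counts of each marker list, the 10 dendritic markers summed to 1.98 to 5.07 CPM in late cells, with Siglech at 0 in every library. The 10 T and NK markers summed to 55.1, 42.4, 0.886 and 23.5 CPM, with Cd3e at 0 in all but Mll3SI. Of these 10, 1 reached 10 CPM in each of control, Mll3SI and Mll3/4SI and none did in Mll4SI. The 8 stromal markers summed to 0.944 to 1.99 CPM and the 10 monocyte markers to 14.7 to 30.7 CPM. Lists of B-lymphoid (3.41 to 16.9 CPM), megakaryocyte (1.70 to 2.96), HSC/MPP (24.2 to 29.6), macrophage (42.2 to 53.4), erythroid (40.8 to 51.7), eosinophil (42.5 to 69.1) and basophil or mast cell markers (55.9 to 101.2) were also low, the last lowest in Mll4SI. In the erythroid-like cells of Mll4SI the 8 genes and Camp were all above their control level there (Camp at 3243 against 358 CPM), and this signal of granulocyte genes in cells of another type was not corrected for.

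Levels were also taken apart by the 2 hashtags. In granulocyte-like Mll4SI cells Inhba was at 250.3 CPM with Hashtag1 and 228 CPM with Hashtag2, and Fmnl2 at 346 and 304 CPM. In Mll3/4SI Inhba was at 117 and 56.0 CPM, Fmnl2 at 131 and 59.8 CPM and Adpgk at 438 and 226 CPM, while Ifitm6 was at 715 and 688 CPM and AA467197 at 95.7 and 93.4 CPM. In Mll3SI Fmnl2 was at 131 and 177 CPM and Ifitm6 at 321 and 457 CPM. In control Inhba was at 151 and 123 CPM and Fmnl2 at 257 and 209 CPM. What the hashtags mark is not given, and they were not used as replicates.

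Over the 12 combinations of library and stage, the genes nearest in pattern to the mean of the 8 were Cpne3, Tmcc1, Sqor, Rell1 and Ifnlr1, with Pearson correlations of log2 CPM + 1 from 0.994 to 0.997 among 9175 genes. Within the 8, Ifitm6 and AA467197 were nearest to each other, at 0.990, and Id2 and Fmnl2 farthest apart, at 0.527. The nearest gene outside the 8 was S100a6 for AA467197, at 0.994, and Gsn for Id2, at 0.998. Each set of 12 values shares 4 libraries and is led by the step from early to late cells, so high values are common.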

How the data were processed

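The deposited files hold raw counts of unique molecular identifiers per gene and antibody in each cell barcode, and the file headers name Cell Ranger 7.1.0. The build is mm10, per the submitters' processing notes. The 4 libraries held 7887, 9370, 11678 and 7524 barcodes and 140546094, 141489749, 177753607 and 158323616 RNA UMIs (control, Mll3SI, Mll4SI, Mll3/4SI). Depth and cell number set the counting intervals, which do not cover variation between animals or cultures.

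From these counts, cells with at least 500 genes, at least 1000 UMIs and at most 10% mitochondrial UMIs were kept, and Scrublet doublets were removed at 0.8% per 1000 cells (409, 594, 1001 and 411 cells). All cells were clustered together in scanpy 1.11.5 on 2000 variable genes, without the 8 genes, the cell type markers, and X-inactivation, Y-linked, mitochondrial, ribosomal and globin genes (30 components, 15 neighbours, Leiden resolution 1, 27 clusters). Names needed 3 markers at a log2 ratio of 1, and 3 clusters stayed unnamed. UMIs were summed by library and class or stage and scaled to CPM, and log2 ratios had 1 CPM added. Intervals are exact (Poisson, conditional binomial for ratios, Clopper-Pearson for shares), and the limit given for a share of 0 is 3 counts of the total. A 2-fold difference was read against all genes of at least 10 CPM in either library. Leading genes of clusters were ranked with 50 CPM added. Hashtag thresholds were 119 and 299 UMIs. Gene positions came from an annotation of GRCm38, where 32158 of 32285 gene IDs were found.

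The 8 genes, the gene lists and the alternatives were chosen with earlier results of these data known. Named beside the 8 were the 10 genes with the highest Mll4SI to control ratio (10 CPM added; Xist, Tsix, Pcdh11x, Epha5 and 1700006J14Rik among them), the genes nearest in pattern, and listed genes or neighbours past 2-fold or as examples. Scripts ran under Python 3.11.15 with igraph 0.11.9, pandas 2.3.3, numpy 2.4.6, scikit-learn 1.9.0 and scipy 1.17.1, and were tested on simulated data.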

Additional observations from a re-analysis of the deposited data

Results flagged for a closer look

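For several genes the difference from control lay on opposite sides of 0 in different stages of the same library. Each comparison has 1 library on each side, so these differences between stages were not tested.

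Syne2 in Mll4SI had a log2 ratio of 1.57 in intermediate cells, -0.40 in early cells and -0.39 in late cells. Adpgk in Mll3SI had 0.24 in early, 0.42 in intermediate and -0.022 in late cells, the last a near-zero difference.

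In Mll3/4SI the pattern covered 5 genes, each higher than control in intermediate cells and lower in late cells. Inhba had log2 ratios of 1.10 and -0.50 in intermediate and late cells, Syne2 had 1.92 and -0.25, and AA467197 had 5.17 and -0.60. Id2 had 0.95 in early, 0.92 in intermediate and -0.11 in late cells. Adpgk had -0.33 in early, 0.41 in intermediate and -0.58 in late cells. The intermediate value of Inhba rests on 17 Mll3/4SI and 4 control UMIs, and that of AA467197 on 260 and 2. Late cells of Mll3/4SI and control also differed in marker level. In late cells with 8000 CPM or more of Ltf, Ly6g and Cd177 together, Inhba was at 222 CPM in both. There Adpgk was at 828 CPM in Mll3/4SI and 823 CPM in control, and Syne2 at 265 and 262 CPM. Id2 was at 224 and 234 CPM, and AA467197 at 160 and 263 CPM.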

How the results depend on the processing

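Over all granulocyte-like cells the median log2 ratio of the 8 genes was -0.30 in Mll3SI, -0.55 in Mll3/4SI and 0.52 in Mll4SI. In Mll4SI it was 0.62 with median-of-ratios scaling, 0.56 as a mean over cells, 0.58 by stage gates alone, 0.46 with Hashtag1 only, 0.59 with Hashtag2 only and 0.26 in late cells only. Without the clusters in which 1 library gave more than 80% of the cells it was -0.76, and Inhba was at -0.70, Ncam1 at -0.36, Id2 at -0.53, Adpgk at -0.63, Fmnl2 at -1.005, Ifitm6 at -0.82 and AA467197 at -1.45. That setting keeps 1520 of 7949 Mll4SI cells, 443 and 243 of them in the early clusters 1 and 3, against 472 and 370 of 4232 control cells, so the stage mix changed too. In Mll3/4SI it put Ncam1 at -0.043 and Ifitm6 at -0.15. The Mll3SI median was -0.23 as a mean over cells, -0.52 with Hashtag1, -0.081 with Hashtag2 and -0.13 in late cells. The Mll3/4SI median was -0.30 by stage gates alone, -0.35 at Leiden resolution 2, -0.27 with Hashtag1 and -0.37 in late cells. Id2 in Mll3SI turned to 0.0028 as a mean over cells, 0.022 with Hashtag2 and 0.11 in late cells. The share of Mll4SI cells with at least 3 of the genes (87.3%) was 90.9% at 5000 UMIs, 94.9% without thinning or in late cells only, 76.5% by stage gates alone, 88.1% with Hashtag1 and 86.2% with Hashtag2. In each case the cause was not tested. Of 96 single-gene values per comparison, 7 reversed in Mll4SI, 3 in Mll3SI and 2 in Mll3/4SI. A further 49, 32 and 54 moved by more than the counting error, and 40, 61 and 40 stayed within it. No paired analysis was possible because each group has 1 library and no replicate could be left out. Few intermediate cells (122 to 317) and low UMI counts limit Inhba and AA467197 there.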

Other observations

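As a pool, the cells of Mll3/4SI that passed no stage gate, 411 in number, held RNA of some of the 8 genes. After thinning, 59.8% of these cells held none of the 8 and 14.95% held at least 3, so pooled levels do not describe each cell. In them Ifitm6 was at 307 CPM, AA467197 at 54.6 CPM, Ncam1 at 79.7 CPM and Id2 at 33.4 CPM, while Inhba was at 0.803 CPM and Fmnl2 at 10.8 CPM. These levels of Ifitm6 and AA467197 were close to the 270.0 and 56.9 CPM of intermediate Mll3/4SI cells. After thinning, 23.0% of the cells without a stage held an Ifitm6 UMI and 13.7% an AA467197 UMI. The other libraries had too few such cells for a value.

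The transcript 1700006J14Rik was at 3.48 and 4.22 CPM in granulocyte-like cells of control and Mll3SI and at 69.9 and 101.4 CPM in Mll4SI and Mll3/4SI. Pcdh11x, an X-linked protocadherin gene, was at 42.2 CPM in Mll4SI, 2.55 CPM in Mll3/4SI and 0.0538 CPM in control. Epha5, an ephrin receptor gene, was at 37.9, 13.4 and 0.175 CPM in the same libraries. S100a6, the nearest gene in pattern to AA467197, was at 622, 363, 555 and 363 CPM in late cells of control, Mll3SI, Mll4SI and Mll3/4SI.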
